A study of Mus musculus with 17 samples.

Results

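The choroid plexus epithelium genes described here are Ttr, Folr1, Clic6, Kl, Aqp1, Enpp2, Sostdc1, Slc4a5, Cldn2 and Prlr, taken by gene symbol. All 10 were found among the 78298 genes listed in each library. They were measured by poly(A) RNA sequencing in 17 libraries of male C57BL/6 mouse brainstem that the labels place in the locus coeruleus, the noradrenergic nucleus beside the fourth ventricle. They came from mice given vindeburnol (5 libraries), mice given its derivative VB-127 (6 libraries) and untreated mice (6 libraries). Each compound was gavaged daily at 20 mg/kg over 5 days, and brains were sampled 24 h later. The labels list no mice gavaged with vehicle, so effects of a compound and of the gavage cannot be told apart.

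The choroid plexus is a folded sheet of secretory epithelium inside the brain ventricles, and it makes cerebrospinal fluid. Its cells move water and ions through channels and transporters, hold a selective tight junction, and load the fluid with carrier proteins and vitamins. Ttr, which encodes the thyroxine carrier transthyretin, is among the most abundant transcripts of this epithelium and is little used by other brain cells, so that in tissue dissected near a ventricle it is often read as a sign of attached choroid plexus. Several of the other genes are less particular. Enpp2, the gene of the lysophospholipase autotaxin, is also used by myelinating oligodendrocytes.

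Levels are given as TPM, a measure of a gene's share of the transcripts in a library that corrects for transcript length, so that genes can be compared with each other. TPM carries no read depth, and the depth of each library is unknown. Between 21016 and 26993 genes were listed above 0 in a library. The 12 genes of general cell function that were checked were above 0 in every library, the lowest being Tbp at 8.09 TPM. The labelled nucleus was itself weakly represented. Dbh, the noradrenaline synthesis enzyme, and Slc6a2, the noradrenaline transporter, had medians of 1.08 and 0.300 TPM over the 17 libraries. Dbh averaged 0.411 TPM after vindeburnol, 0.930 TPM after VB-127 and 6.08 TPM in untreated mice, whose libraries ranged from 0.290 to 18.9 TPM. Slc6a2 averaged 0.0941, 0.310 and 2.45 TPM in the same order. Whether the dissected tissue differed between the groups was not tested. Slc6a3, of dopaminergic neurons, and Slc18a2, which is not particular to them, had medians of 45.5 and 38.2 TPM. Tph2 and Slc6a4, of serotonergic neurons, had medians of 74.2 and 44.3 TPM. Th, shared by noradrenergic and dopaminergic neurons, had a median of 74.5 TPM. Calb1 and Car8, the highest of a cerebellar list of 4 genes, had medians of 18.3 and 4.44 TPM. Of these 4 genes, 1 had a median under 1 TPM and 2 were listed at 0 in at least 1 library.

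Choroid plexus transcripts were scarce in all 17 libraries, with Enpp2 the exception. The other 9 genes together summed to 5.70 to 9.52 TPM after vindeburnol, 8.23 to 11.6 TPM after VB-127 and 5.62 to 9.80 TPM in untreated mice. Of the 10 genes, 6 had a median under 1 TPM, where the median tested gene had 10.8 TPM. Enpp2 had a median of 169 TPM and lay above 95.9% to 97.9% of the genes listed above 0 in a library. Its lowest library, at 121 TPM, was far above the highest value of any other member. Fewer choroid plexus cells and less RNA per cell cannot be told apart in bulk tissue.

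**Figure D1:**
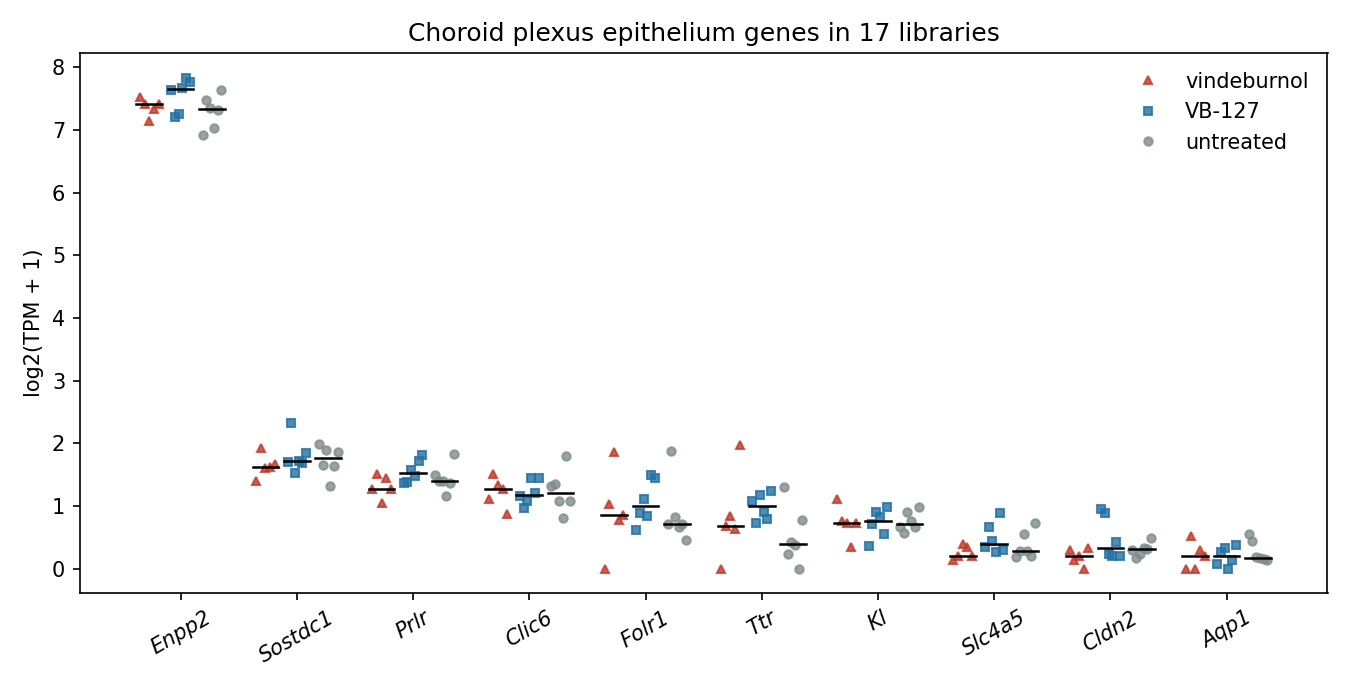
Level of each gene, as log2(TPM + 1), in the 17 libraries. Each point is 1 library, the short black lines are group medians, and genes run from the highest to the lowest overall median. Enpp2 sits near 7 to 8 on this scale in every group, while the other 9 genes lie between 0 and 2.4 and their groups overlap.

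Among the secreted proteins and carriers, Ttr was far from leading. It was listed at 0, 0.602, 0.786, 0.553 and 2.92 TPM in vindeburnol replicates 1 to 5. After VB-127 it ranged from 0.658 to 1.35 TPM with a median of 0.991 TPM. Untreated libraries ranged from 0 to 1.47 TPM with a median of 0.316 TPM. The groups overlapped, and the single highest value came from vindeburnol replicate 5. Ttr lay below Sostdc1 and Prlr in 16 of 17 libraries each, below Clic6 in 15 and below Folr1 in 10.

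Sostdc1, an antagonist of BMP and Wnt signalling that the epithelium secretes, was the highest of the 9 low genes. It was at 1.63, 2.82, 2.03, 2.08 and 2.17 TPM in vindeburnol replicates 1 to 5. The range was 1.88 to 4.02 TPM after VB-127 (median 2.27 TPM) and 1.49 to 2.96 TPM in untreated libraries (median 2.40 TPM). The groups overlapped throughout, with VB-127 replicate 2 above all other libraries. Enpp2 was at 183, 170, 141, 160 and 169 TPM in vindeburnol replicates 1 to 5. It ranged from 147 to 228 TPM after VB-127 (median 201 TPM) and from 121 to 197 TPM in untreated libraries (median 161 TPM). The Enpp2 groups overlapped, with the highest value in VB-127 replicate 5 and the lowest in untreated replicate 1.

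Among the receptors, Folr1 encodes the folate receptor that carries folate into the fluid. It was at 0, 1.03, 2.64, 0.713 and 0.806 TPM in vindeburnol replicates 1 to 5. It spanned 0.537 to 1.83 TPM after VB-127 (median 1.00 TPM) and 0.372 to 2.68 TPM in untreated libraries (median 0.636 TPM). Its 2 highest libraries, vindeburnol replicate 3 and untreated replicate 2, were not those with the highest Ttr. Prlr, the prolactin receptor gene, varied least of the 9 low genes, with a coefficient of variation of 23.2% over the 17 libraries, beside 86.0% for Ttr. Prlr spanned 1.07 to 1.85 TPM after vindeburnol, 1.56 to 2.50 TPM after VB-127 and 1.23 to 2.54 TPM in untreated libraries. Kl encodes klotho, a co-receptor for a fibroblast growth factor that is also shed into the fluid. It was at 0.263 to 1.17 TPM after vindeburnol, 0.281 to 0.985 TPM after VB-127 and 0.486 to 0.986 TPM in untreated libraries, and reached 1 TPM in 1 library.

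The genes for water and ion movement were the lowest. Aqp1, the water channel of the apical membrane, did not exceed 0.465 TPM and was listed at 0 in 3 libraries. Slc4a5, a sodium bicarbonate cotransporter gene, was at 0.0934 to 0.316 TPM after vindeburnol, 0.206 to 0.849 TPM after VB-127 and 0.133 to 0.646 TPM in untreated libraries. Cldn2, which gives the epithelial tight junction its permeability to cations, was at 0 to 0.251 TPM after vindeburnol, 0.145 to 0.924 TPM after VB-127 and 0.120 to 0.406 TPM in untreated libraries. None of these 3 genes reached 1 TPM in any library. Clic6, a chloride intracellular channel gene, was higher, at 0.838 to 1.84 TPM after vindeburnol, 0.965 to 1.74 TPM after VB-127 and 0.746 to 2.48 TPM in untreated libraries.

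By median level the order was Enpp2, Sostdc1, Prlr, Clic6, Folr1, Ttr, Kl, Slc4a5, Cldn2 and Aqp1. Only Enpp2 had a range apart from that of its neighbour. Sostdc1 was above Prlr, and Prlr above Clic6, in 15 of 17 libraries. Folr1 exceeded Ttr in 10 libraries and was lower in 6, while Ttr exceeded Kl in 10 and was lower in 7. Ttr, Folr1 and Kl thus had no fixed order.

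The question for Ttr was whether it moved with the other genes from library to library. It did not do so detectably. Across the 17 libraries, Pearson's r of log2(TPM + 1) with Ttr was 0.24 for Sostdc1, 0.21 for Prlr, 0.15 for Folr1, 0.03 for Enpp2 and -0.27 for Clic6. Spearman's rho was 0.31, 0.31, 0.25, 0.09 and -0.07 for the same genes. In a two-sided permutation test with 100000 permutations the p for r was 0.340, 0.413, 0.558, 0.904 and 0.300 in that order. For rho it was 0.219, 0.228, 0.331, 0.734 and 0.791. Adjusted over these 5 relations, the p for r ran from 0.689 to 0.904, and 0 of 5 passed at 0.05. The rank-based p, adjusted in the same way, ran from 0.551 to 0.791. Of all 16152 other tested genes, 1.19% had a p under 0.05 with Ttr, and none of the 5 members was among them. An r above 0 was found for 4 of the 5 members and for 57.1% of those genes.

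These values were compared with those of all other tested genes. The r of Sostdc1 with Ttr exceeded that of 88.9% of them, that of Prlr 85.2%, that of Folr1 76.2% and that of Enpp2 50.4%. For Clic6 the share was 5.82%. Without vindeburnol replicates 5 and 1, whose Ttr lay farthest from the median, r was 0.24 for Sostdc1, 0.39 for Prlr, 0.0039 for Folr1, 0.11 for Enpp2 and -0.14 for Clic6. With group means removed, r was 0.23, 0.18, 0.10, -0.18 and -0.28 for the same genes. With 0.1 TPM in place of 1 added before the logarithm, the r of Folr1 was 0.41 (permutation p of 0.111, adjusted p of 0.368), so its size depended on that constant. Kl, Aqp1, Slc4a5 and Cldn2, which were too low to test, had r of -0.08, 0.20, 0.02 and 0.12 with Ttr. In vindeburnol replicate 5, where Ttr supplied 31.2% of the sum over the 9 low genes, Folr1 was at 0.806 TPM, Clic6 at 0.838 TPM and Aqp1 at 0.147 TPM, so the highest Ttr did not come with high values of these genes. In vindeburnol replicate 1 Ttr and Folr1 were both listed at 0, while Kl had its highest value, 1.17 TPM.

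**Figure D2:**
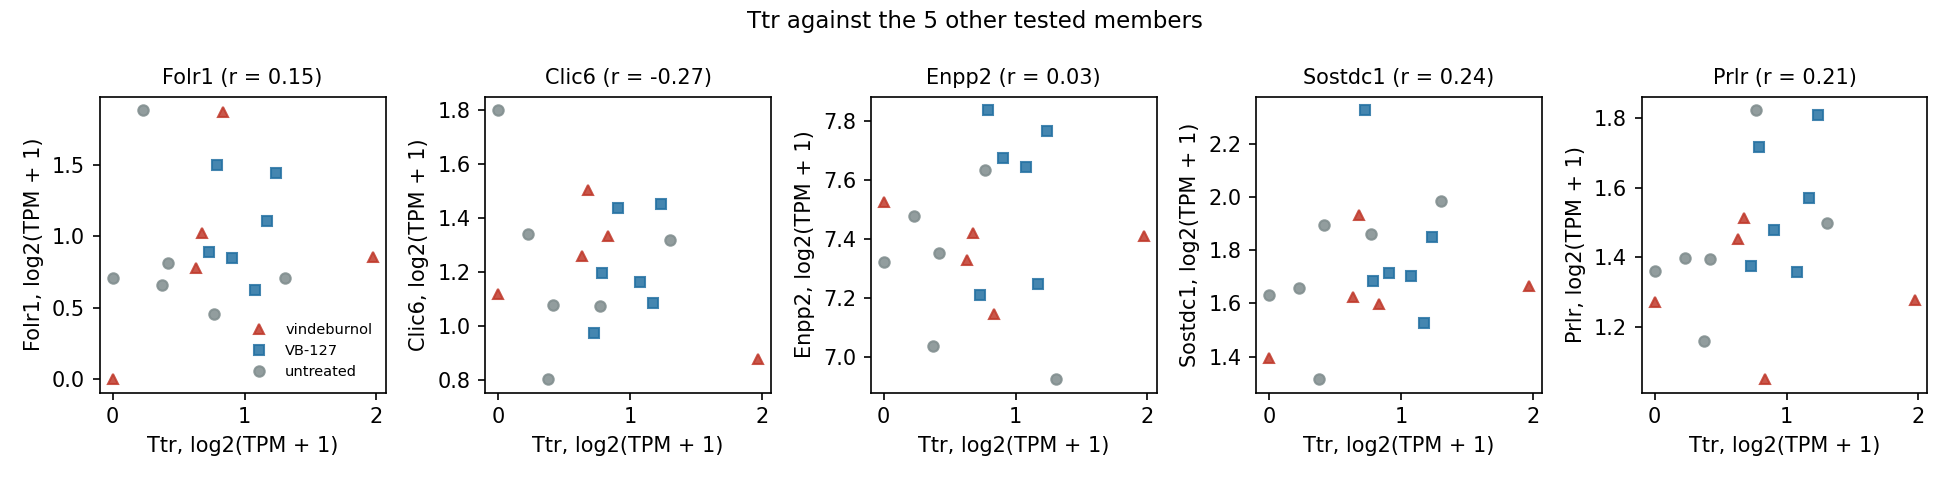
Ttr (horizontal axis) against each of the 5 other tested genes (vertical axis), both as log2(TPM + 1), with 1 point for each of the 17 libraries and Pearson's r in each heading. No panel shows a line of points, and the library farthest right, vindeburnol replicate 5, is low or middling for each of the other 5 genes.

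The genes whose pattern over the 17 libraries was most like that of Ttr, by Spearman's rho and among genes with a mean of at least 2 TPM, were Uba7, Bola1, Rtn4r, Nts, Cdkl3, Bckdha, Gh, Ypel1, Ifngr2 and Mrpl23. Their rho ran from 0.66 to 0.75, and no choroid plexus gene was among these 10. Of the other members only Enpp2 and Sostdc1 reached that mean, so the absence of the rest was fixed by the cutoff. The same holds for the scarce genes of the wider choroid plexus list. With every tested gene adjusted together, 0 genes passed for a correlation with Ttr. The genes most like the mean standardised level of the other 5 tested members were Cd9, Bnip3l, Pak5, Plxdc2, Fos, Nkain2, Sdc2, Sirt2, Car2 and Galc, with rho from 0.83 to 0.89. These ranks are descriptions of the highest of many values.

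Enpp2, the 1 abundant gene, varied from library to library with the genes of myelinating oligodendrocytes. Its r with the mean log2(TPM + 1) of 8 mature oligodendrocyte genes, among them Mbp, Mobp, Mog and Mag, was 0.87 over 17 libraries, with rho of 0.82. The permutation p was 1e-05, the smallest that 100000 permutations can give, and 3e-04 adjusted over the 30 relations of 6 members with 5 cell type lists. These lists were set against the members after the data were seen. Only this relation passed, and 12.7% of all tested genes had a p under 0.05 with the oligodendrocyte list. The r of Enpp2 exceeded that of 99.99% of them. Without the 2 libraries farthest from the list's median it was 0.82, with group means removed 0.86, and with median-ratio scaling of the libraries 0.74.

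Of single oligodendrocyte genes, Mobp had an r of 0.72 with Enpp2, Ermn 0.58 and Opalin 0.21. The myelin genes Mbp and Mobp had medians of 4829 and 1310 TPM over the 17 libraries. In untreated replicate 1 both Enpp2 and the list mean were at their lowest, 6.93 and 7.95 on the log2 scale. Prlr had an r of 0.42 with the oligodendrocyte list and 0.59 with the endothelial list (p of 0.0961 and 0.0135, adjusted p of 0.481 and 0.183), neither past the threshold; 29.3% of all tested genes had a p under 0.05 with the endothelial list. Ttr had an r of 0.04 with the oligodendrocyte list, 0.06 with the ependymal list and 0.51 with the erythrocyte list, the last with a p of 0.0387 and an adjusted p of 0.284 (3.75% of all tested genes had a p under 0.05 with that list). Folr1 had its highest r, 0.49, with the ependymal list (p of 0.0473, adjusted p of 0.284), where 21.3% of all tested genes had a p under 0.05 in either direction. This r exceeded that of 98.1% of all tested genes with that list, and the 0.06 of Ttr exceeded that of 81.7%. For the other tested members the share ran from 36.3% (Enpp2) to 91.3% (Clic6). No member had a p under 0.05 with the meningeal fibroblast list (5.01% of all tested genes). The leading genes of these lists were Rarres2 and Foxj1 (ependymal, medians of 20.3 and 11.9 TPM), Dcn and Slc6a20a (fibroblast, 13.9 and 5.44 TPM), Ly6c1 and Slc2a1 (endothelial, 105 and 82.0 TPM) and Hba-a2 and Hbb-bs (erythrocyte, 720 and 601 TPM). The globin genes have near-identical copies, so their single values are uncertain.

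A choroid plexus gene outside the 10, Slc13a4, a sulfate transporter gene named after its values were seen, had an r of 0.96 with the mean of 8 meningeal fibroblast genes. Its own level ran from 0.212 to 6.16 TPM.

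**Figure D3:**
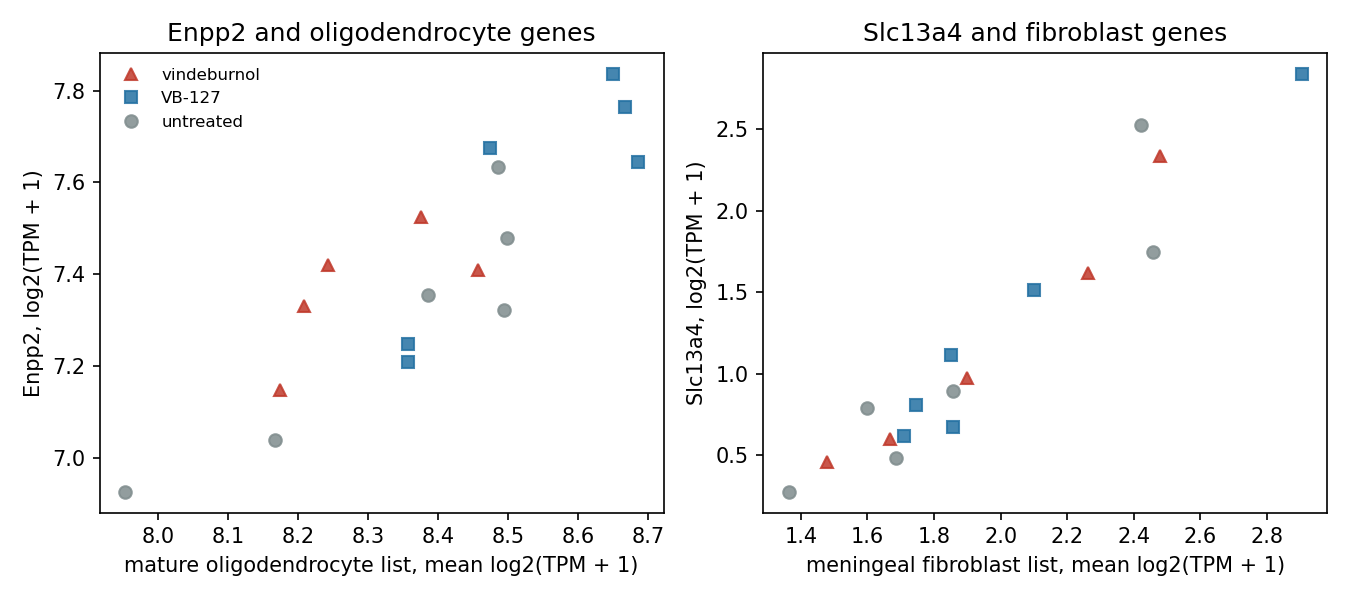
Left, Enpp2 against the mean of 8 mature oligodendrocyte genes. Right, Slc13a4 against the mean of 8 meningeal fibroblast genes. All axes are in log2(TPM + 1), and each point is 1 of 17 libraries; the points run along a rising line in both panels (r of 0.87 and 0.96). The 3 libraries with the highest oligodendrocyte mean are VB-127 libraries and the lowest is an untreated one, while the other libraries of the groups lie among each other.

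Vindeburnol was compared with untreated mice to ask whether the compound shifted these genes. None passed the test. A linear model in limma was fitted to log2(TPM + 1) of 16153 genes that reached 1 TPM in at least 5 libraries, and p-values were adjusted over all of them by the Benjamini-Hochberg method. That filter kept 6 members; Kl, Slc4a5, Cldn2 and Aqp1 fell below it. Ttr just passed, with 5 libraries at 1 TPM or more, of which 3 came from the VB-127 group.

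Ttr averaged 0.971 ± 1.13 TPM after vindeburnol (SD, n = 5) and 0.497 ± 0.531 TPM in untreated mice (SD, n = 6). On the log2 scale Ttr differed by 0.31, with an SE of 0.28, a 95% interval of -0.28 to 0.89 and, in limma, an adjusted p of 0.788. Without vindeburnol replicate 5 the difference was 0.02. Enpp2 averaged 165 ± 15.7 TPM against 158 ± 28.7 TPM, a difference of 0.07 (95% interval -0.19 to 0.34), which turned to -0.01 with median-ratio scaling. Folr1, Clic6, Sostdc1 and Prlr differed by 0.03, -0.02, -0.08 and -0.13, and their intervals also spanned 0. Over the 6 tested members 3 differences were above 0 and 3 below, with a median of 0.0068, beside a median of 0.08 and 69.7% above 0 over all tested genes. The limma test called 0 of 6 members at an adjusted p under 0.05 (0% of all tested genes) and 0 at an unadjusted p under 0.05 (8.17% of all tested genes). All 10 members overlapped between the groups, where 0.520% of tested genes did not.

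VB-127 was compared with untreated mice with the same question. No member passed here either, and Enpp2 came closest. It averaged 191 ± 33.8 TPM after VB-127 (SD, n = 6) and 158 ± 28.7 TPM in untreated mice (SD, n = 6), with 4 of 6 VB-127 libraries above the untreated mean. On the log2 scale limma gave 0.27, with an SE of 0.12, a 95% interval of 0.01 to 0.53, an unadjusted p of 0.0393 and an adjusted p of 0.479. It was the only member of the 6 tested at an unadjusted p under 0.05, a threshold that 10.2% of all tested genes met (9.67% higher). Over its alternatives the difference ran from 0.15 to 0.34 and the adjusted p from 0.322 to 0.765. The lowest, 0.15 (SE 0.093), came with median-ratio scaling. With no filter on low values the 95% interval was -0.0021 to 0.54 and the unadjusted p in limma 0.0516.

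Of the 8 mature oligodendrocyte genes, 6 were above 0 and 2 below in this comparison, with a median of 0.24, beside 79.4% above 0 and a median of 0.11 over all tested genes. Of these 8, 0 passed after adjustment and 4 had an unadjusted p under 0.05, all higher, as were 9.67% of all tested genes. The 4 were Mag, Mog, Opalin and Cnp, named after their values were seen, at 0.32, 0.27, 0.59 and 0.21 on the log2 scale. Their adjusted p in limma ran from 0.467 to 0.484. With median-ratio scaling 638 of all tested genes were higher and 564 lower at that unadjusted threshold, against 1562 and 86 without it. The 2 below 0 were Ermn at -0.15 and Mobp at -0.03. The list summed to 7472 to 9779 TPM after VB-127 and 6048 to 10080 TPM in untreated mice, and no list member was at 0. The part of these genes in the Enpp2 difference was not tested.

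Ttr averaged 0.996 ± 0.285 TPM after VB-127 (SD, n = 6) and 0.497 ± 0.531 TPM in untreated mice (SD, n = 6). All 6 VB-127 libraries lay above the untreated mean, but untreated replicate 1, at 1.47 TPM, was higher than any of them. Ttr differed by 0.47 on the log2 scale, with an SE of 0.27, a 95% interval of -0.09 to 1.02 and, in limma, an adjusted p of 0.547. Because Ttr is so low, this value depended on the constant added before the logarithm and became 1.32 with 0.1 TPM in place of 1 (adjusted p in limma of 0.517). Folr1, Prlr, Sostdc1 and Clic6 differed by 0.19, 0.11, 0.08 and -0.02, with intervals that spanned 0; Prlr turned to -0.0062 with quantile normalization and Sostdc1 to -0.03. The 6 tested members had a median of 0.15 with 5 above 0, beside 0.11 and 79.4% over all tested genes, and median-ratio scaling moved that overall median to 0.01. The limma test called 0 of the 6 tested members (0.00619% of all tested genes). All 10 members overlapped between the groups, where 0.669% of tested genes did not.

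Vindeburnol was compared with VB-127, its derivative, at the same dose and time, in 1 pair over 6 tested genes. Ttr averaged 0.971 ± 1.13 TPM after vindeburnol (SD, n = 5) and 0.996 ± 0.285 TPM after VB-127 (SD, n = 6). The log2 difference was -0.16 (95% interval -0.74 to 0.42, adjusted p in limma of 0.99988), and it turned to 0.05 without vindeburnol replicate 1. Enpp2 averaged 165 ± 15.7 TPM and 191 ± 33.8 TPM, a difference of -0.20 (95% interval -0.47 to 0.07). Prlr, Folr1 and Sostdc1 differed by -0.24, -0.16 and -0.16, with 95% intervals of -0.56 to 0.08, -0.76 to 0.44 and -0.50 to 0.19. Clic6 differed by -1.2e-05 and changed sign with scaling. The limma test called 0 of 6 members (0% of all tested genes), and 0 had an unadjusted p under 0.05 (3.38% of all tested genes). The median over the members was -0.16, beside -0.03 and 38.9% above 0 over all tested genes. The 10 members overlapped between the compounds, where 0.390% of tested genes did not. These intervals do not show that the compounds act alike on these genes. The comparisons with untreated mice share the same untreated libraries.

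**Figure D4:**
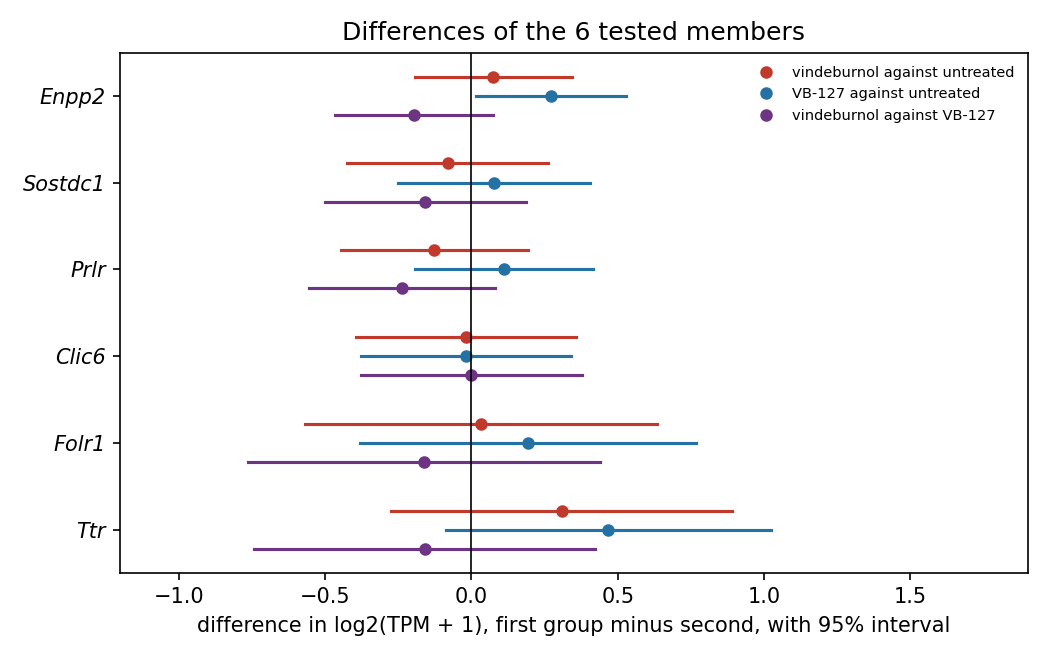
Difference in log2(TPM + 1) of the 6 tested genes, first-named group minus second, in the 3 comparisons. Points are limma estimates and lines their 95% intervals. The Enpp2 interval for VB-127 against untreated mice is the 1 interval that leaves out 0; the widest intervals are those of Folr1 and Ttr.

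The 4 members below the filter were fitted in a table without it. Their differences ran from -0.11 to -0.03 for vindeburnol against untreated mice, from -0.07 to 0.18 for VB-127 against untreated mice and from -0.29 to 0.01 for vindeburnol against VB-127. The largest of the 12, at -0.29, was that of Cldn2 between the compounds, where Cldn2 averaged 0.147 ± 0.101 TPM after vindeburnol (SD, n = 5) and 0.430 ± 0.360 TPM after VB-127 (SD, n = 6). Its unadjusted p in limma was 0.0651 and its adjusted p 0.946. None of the 4 genes had an unadjusted p under 0.05 in a comparison, where 5.19%, 6.34% and 3.36% of the genes fitted without the filter did, in the order of the comparisons above. Cldn2 was at 0.924 and 0.843 TPM in VB-127 replicates 1 and 2 and at most 0.340 TPM in the other 4.

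Other genes of the choroid plexus epithelium were read from a list of 32, of which 31 were found. They split into a scarce and an abundant class. Of the 31, 11 had a median under 1 TPM and 10 were listed at 0 in at least 1 library. The potassium channel subunit gene Kcne2 was at 0 in 10 of 17 libraries and never above 0.230 TPM, and Kcnj13, a potassium channel gene of the apical membrane, was at 0 in 6 libraries with a median of 0.220 TPM. Tmem72 did not exceed 0.261 TPM, nor the coagulation factor gene F5 0.287 TPM; these 4 were named after their values were seen. The 6 with the highest mean were Igfbp2, Htr2c, Car14, Atp2b3, Slc12a2 and Cab39l, with medians of 64.8, 42.7, 33.2, 30.9, 29.0 and 23.8 TPM. Of these, the serotonin receptor gene Htr2c and the calcium pump gene Atp2b3 are also used by neurons.

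In none of the 3 comparisons did a gene of this wider list pass. Of 21 tested, 12 were above 0 and 9 below for vindeburnol against untreated mice, with a median of 0.08. For VB-127 against untreated mice 19 were above 0 and 2 below, with a median of 0.19. For vindeburnol against VB-127 6 were above 0 and 15 below, with a median of -0.07. The medians over all tested genes were 0.08, 0.11 and -0.03. At an unadjusted p under 0.05, 1 was higher and 1 lower in the first comparison (6.95% and 1.22% of all tested genes), 1 higher in the second (9.67%) and 4 lower in the third (2.49%). The shares of the first and second comparisons depend on scaling. With median-ratio scaling 726 of all tested genes were higher and 674 lower in the first comparison, against 1122 and 197 without it. In the second the counts were 638 and 564, against 1562 and 86 without it. In the third the lower count, that of the 2.49%, changed little with this scaling. The higher count there was 308, against 144 without it. The 1 lower gene in the first was Cox8b, named after its values were seen, at 0.378 ± 0.567 TPM after vindeburnol (SD, n = 5) and 2.12 ± 0.998 TPM in untreated mice (SD, n = 6). Its log2 difference was -1.21 (SE 0.27) with an adjusted p in limma of 0.352. It was listed at 0 in 3 of 5 vindeburnol libraries and in none of the others. Against VB-127, with 2.17 ± 0.934 TPM (SD, n = 6), it differed by -1.23 (adjusted p in limma of 0.802), and the other 3 lower genes there were Slco1c1, Msx1 and Car14, at -0.54, -0.54 and -0.33. The 1 higher gene in each comparison with untreated mice was Ace, the angiotensin-converting enzyme gene, at 0.30 after vindeburnol and 0.26 after VB-127 (adjusted p in limma of 0.556 and 0.483). These genes too were named after their values were seen.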

How the data were processed

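The authors deposited TPM values per gene and library. STAR, Salmon and the mouse build GRCm39 are named in the submitters' processing notes; versions and annotation are not given in the sources used here. Per the labels' protocols the poly(A) libraries were directional. Read depth is unknown, so every error is the spread between libraries, which the labels do not state to be separate animals.

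Values were analysed as log2(TPM + 1), so differences of low genes are understated. Genes with at least 1 TPM in at least 5 libraries were tested with limma 3.58.1 in R 4.3.3 (trended, robust eBayes; group as the only term; all 17 libraries; two-sided; called at an adjusted p under 0.05), tested on simulated data. Correlations used Python 3.11.15 and numpy 2.4.6. A table of all libraries held the same values and was not used further.

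The members, gene lists and tests were chosen with earlier results of these data known. The named genes were the 10 members, the 6 highest of the wider choroid plexus list, the 2 highest of each other marker list, Dbh, Slc6a2, Slc6a3 and Tph2, and the 10 genes most like Ttr or the other members. Alternatives covered pseudocount, filter, scaling, groups in the fit, a replicate block and left-out libraries. Replicate numbers are not stated to mark shared animals. The values of 1 marker gene are not reported here. A search of promoters for motifs was not run, since no result rests on promoter sequence.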

Additional observations from a re-analysis of the deposited data

Results flagged for a closer look

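Within each of the 3 groups the highest and lowest library of each of the 10 genes was compared with the others by Dixon's gap test. Of 30 such groups 3 held a library far from the rest, where chance gives about 1 in 20. Ttr was at 2.92 TPM in vindeburnol replicate 5, where the next vindeburnol library was at 0.786 TPM. Folr1 was at 2.68 TPM in untreated replicate 2, where the next untreated library was at 0.759 TPM. Sostdc1 was at 4.02 TPM in VB-127 replicate 2, where the next VB-127 library was at 2.60 TPM. The 3 values came from different libraries.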

How the results depend on the processing

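Over 363 differences of the 6 tested members under alternatives, 0 passed the threshold (lowest adjusted p in limma 0.322) and 32 changed sign. The sign changed for Folr1 in vindeburnol against untreated with a pseudocount of 0.1 (-0.21) and without untreated libraries 1 and 6 (-0.11), which have the highest Dbh, a choice made after seeing the data; for Sostdc1 without those same libraries (0.0183); and for Enpp2 with median-ratio scaling (-0.0117). In VB-127 against untreated it changed for Prlr with quantile normalization (-0.0062) and for Sostdc1 with median-ratio scaling (-0.0015) and quantile normalization (-0.0314). In vindeburnol against VB-127 it changed for Clic6 with these scalings (0.0228 and 0.0583), without Bc1 (0.0054) and with the replicate block (0.007). With 1 library left out, differences ran from -0.21 to 0.26 for Folr1, from -0.10 to 0.0949 for Clic6 in vindeburnol against untreated; from -0.10 to 0.10 for Clic6 and from -0.0285 to 0.13 for Sostdc1 in VB-127 against untreated; and from -0.40 to 0.0629 for Folr1, from -0.0712 to 0.0851 for Clic6 and from -0.45 to 0.0457 for Ttr in vindeburnol against VB-127. The cause was not tested.

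Over all genes limma called 0 for vindeburnol against untreated, but 1 with a mean of at least 5 TPM or without Bc1. For VB-127 against untreated it called 1, but 0 with a pseudocount of 0.1, with no filter, with a mean of at least 5 TPM or with the replicate block, 2 with only both groups compared or without untreated libraries 1 and 6, and 0 to 1 with 1 library left out (0 without VB-127 replicate 4, 5 or 6 or untreated replicate 4 or 5). Same-numbered libraries deviated with r from -0.195 to 0.111 (1 of 16 pairs over 0.1 and 1 of 17 libraries closest to its own number). These values show little common deviation over the tested genes. They cannot show whether same-numbered libraries share a batch. No member was correlated with Ttr under any alternative run. The r of Enpp2 with Ttr turned to -0.0253 with median-ratio scaling, -0.18 with group means removed and -0.44 with the replicate block, and ran from -0.0597 to 0.20 with 1 library left out; that of Folr1 ran from -0.0589 to 0.35. Relations of members with cell type lists numbered 1, and 2 with the replicate block, which added Enpp2 with the erythrocyte list (r of -0.72). Those of other choroid plexus genes numbered 10, with 21 under the replicate block, 5 without the 2 libraries farthest from the list median and 7 to 12 with 1 library left out. Under the replicate block the permutation treated the 17 values left after removing group and replicate number as independent, which they are not. Its p are therefore too small, and the relations it added cannot be read as passing. The unknown depth limits every gene near 0.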

Other observations

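Some genes of the wider choroid plexus list varied from library to library with genes of other cell types. These relations were computed after the data were seen, for 21 tested genes and 5 cell type lists, and p was adjusted over the 105 relations, of which 10 passed. Of all tested genes, 21.3% had a p under 0.05 with the ependymal list, 29.3% with the endothelial list and 5.01% with the meningeal fibroblast list. These shares are before adjustment and the 10 after it, so they cannot be set directly against each other. Whether genes of the wider list had more such relations than other genes was not tested. Slc13a4, a sulfate transporter gene, had an r of 0.96 with the mean of 8 meningeal fibroblast genes over the 17 libraries (rho 0.94), with a permutation p of 1e-05, the smallest the permutations can give, and an adjusted p of 5.2e-04. It was 0.93 without the 2 libraries farthest from the list median and 0.96 with group means removed. Slc13a4 was highest at 4.04 TPM within the vindeburnol group (replicate 1), at 6.16 TPM within the VB-127 group (replicate 6) and at 4.75 TPM within the untreated group (replicate 4), and lowest at 0.212 TPM in untreated replicate 2. Igf2, a growth factor gene, had an r of 0.84 with the same list (rho 0.72, adjusted permutation p of 0.00175), and 0.86 without the 2 farthest libraries. It reached 41.6 TPM in VB-127 replicate 6, against 28.1 TPM in its highest untreated library. In VB-127 replicate 6 the fibroblast list summed to 71.6 TPM and the 9 scarce choroid plexus genes to 11.6 TPM, both the highest of the 17 libraries. Other libraries rich in the fibroblast list did not share this. Its mean log2(TPM + 1) was 2.48 in vindeburnol replicate 1, 2.46 in untreated replicate 3 and 2.42 in untreated replicate 4. There the 9 genes summed to 5.70, 8.19 and 5.62 TPM, the first and last being the lowest of their groups.

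Ecrg4, Mia and Calml4 varied with the ependymal list, the ciliated lining of the ventricles, with r of 0.86, 0.79 and 0.80 and adjusted permutation p of 5.2e-04, 0.00357 and 0.00357. Without the 2 libraries farthest from that list's median, Ecrg4 still passed, with an r of 0.80 and an adjusted permutation p of 0.0119, whereas Mia and Calml4 did not. Lbp and Slc12a2 had r of 0.64 and -0.65 with the ependymal list, each with an adjusted permutation p of 0.0498. With the endothelial list, Slc12a2, Slco1c1 and Car14 had r of 0.78, 0.73 and 0.66, with adjusted permutation p of 0.00525, 0.0136 and 0.0498. Ependymal genes were present in every library: Foxj1, their regulator of motile cilia, was at 8.08 to 16.3 TPM and Rarres2 at 11.9 to 28.3 TPM. The list had an r of 0.06 with Ttr, which exceeded its r with 81.7% of all tested genes.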
